A study of Mus musculus with 21 samples.

Results

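The genes followed here make, break down, bind or answer retinoic acid, the active form of vitamin A, in mouse cells at the top of the blood lineage. They are Rara, Rarb, Rarg, Cyp26b1, Aldh1a1, Dhrs3, Rdh10, Crabp1 and Tgm2, chosen by name for their place in the pathway, and they are 9 of 28987 gene identifiers in the deposited expression table. The study deleted the retinoid X receptors (RXR), nuclear receptors that pair with the retinoic acid receptors, from blood cells. Expression was profiled in 21 libraries of sorted bone marrow cells. Of these, 6 are multipotent progenitors (MPP), which stand below the stem cells in the blood lineage, and 15 are long-term haematopoietic stem cells (LT-HSC), which renew blood for life. The knockouts carry floxed Rxra and Rxrb alleles (labelled Rxrabfl/fl) and Cre recombinase under the Vav1 promoter, which is active across the blood lineage. Batch 1 holds MPP and LT-HSC of knockouts (labelled VaviCre+Rxrabfl/fl) and of floxed controls without Cre (Rxrabfl/fl). Batch 2 holds LT-HSC alone, from knockouts with an added floxed allele of the Myc family (Vav1Cre+Rxrabfl/fl Myclfl/+), from animals labelled knockout (Vav1Cre+Rxrabfl/fl) and from Cre controls without floxed alleles (Vav1Cre+WT). The allele is written Mycl in the titles and Myc in the descriptions, and is called the Myc allele here. Each of the 7 groups has 3 libraries. The control genotype changes with the batch, so that the effects of both cannot be told apart across batches. Each library comes from pooled animals whose ages are not given in the labels, and MPP are the MPP3/MPP4 fractions.

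Retinol is oxidised to retinaldehyde by enzymes such as RDH10, and retinaldehyde is oxidised to retinoic acid by the ALDH1A family. DHRS3 turns retinaldehyde back to retinol, and CYP26 enzymes break retinoic acid down. Retinoic acid acts through the receptors RARα, RARβ and RARγ, which bind DNA as pairs with an RXR. Retinoic acid signalling is known in stem cells for its link to dormancy, and in myeloid progenitors for its link to differentiation.

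The upstream sequences of Rarb and Cyp26b1 are shown because these were the members that stood lower in the knockout stem cells. Each holds the 250 bases before an annotated start (RefSeq, build GRCm38.p6), written 5′ to 3′ on the minus strand that carries the gene. The Rarb stretch lies at chr14:16575477-16575726 and the Cyp26b1 stretch at chr6:84593811-84594060. Capitals mark the match to a retinoic acid response element, sought on both strands as a pair of direct copies of GNTCA with 6 bases between them, which puts the hexamers 5 bases apart (a DR5).
Rarb: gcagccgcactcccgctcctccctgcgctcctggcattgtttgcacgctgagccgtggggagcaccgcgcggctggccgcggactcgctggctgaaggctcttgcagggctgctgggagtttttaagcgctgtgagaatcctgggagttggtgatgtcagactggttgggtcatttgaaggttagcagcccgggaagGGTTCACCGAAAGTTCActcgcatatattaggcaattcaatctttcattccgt
Cyp26b1: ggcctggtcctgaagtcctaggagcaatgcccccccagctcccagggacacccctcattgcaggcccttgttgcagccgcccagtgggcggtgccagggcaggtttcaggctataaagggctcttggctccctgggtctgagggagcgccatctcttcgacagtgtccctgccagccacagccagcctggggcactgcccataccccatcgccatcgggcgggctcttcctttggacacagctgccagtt
The Rarb match, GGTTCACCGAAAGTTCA, lies at chr14:16575513-16575529, 53 to 37 bases before the start. Windows of 250 bases before to 50 after a start were present for 7 of the 9 members, 14 windows in all, and the single Rarb window alone held the DR5. It was found in 283 of 32851 windows of all genes, or 0.862%. Motifs with the same cores but hexamers 1 base apart (DR1, in 1.26% of all windows) or 2 bases apart (DR2, in 1.12%) were in no member window. No match says only that these letters are absent from the windows searched.

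The labels and the libraries were checked first. A junction that skips an exon of Rxra (mm10 chromosome 2, 27741203 to 27748612) made up a fraction of 0.938 of the reads in knockout LT-HSC 1 and of 1 and 0.5 in knockout MPP 1 and 3, and the remaining batch 1 knockouts had no value. It was 0.647, 0 and 1 in the Myc allele LT-HSC and 0, 0.0127 and 0 in the libraries labelled knockout of batch 2, against 0 in all controls but LT-HSC floxed control 2, at 0.1. The libraries labelled knockout of batch 2, and replicate 2 of the Myc allele group, thus showed almost none of this skipping. This junction does not cover Rxrb, the other targeted gene, whose levels are given below with the RXR genes. In TPM (transcript abundance corrected for length and scaled to a fixed library total), the 9 LT-HSC marker genes summed to 126 to 150 in knockout MPP and 120 to 159 in floxed control MPP, against 722 to 915 in knockout LT-HSC and 324 to 550 in floxed control LT-HSC of batch 1. The 6 MPP markers summed to 1095 to 1969 in MPP and 30.9 to 136 in LT-HSC. A single identifier, ENSMUSG00000089855, took 10.6% to 51.8% of the fixed TPM total, with the highest share in floxed control 2 of the LT-HSC. The deposited values of a library sum to 691094 to 918942, less than that total, so its share of the deposited TPM is larger. The median log2 change of all genes was 0.52 in knockout against floxed control LT-HSC of batch 1, so changes there are also given with libraries scaled by the median ratio of their genes ("rescaled").

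The members differed widely in level between the sorted populations. In LT-HSC libraries Aldh1a1 ran from 61.1 to 210.5 TPM and Tgm2 from 28.1 to 69.6 TPM, and they were the 2 most abundant members there. In MPP libraries Dhrs3 was the most abundant, at 20.9 to 33.8 TPM. Rara, Rarg and Rdh10 stayed between 1.46 and 14.2 TPM in all 21 libraries. Rarb reached 1 TPM in no MPP library and in all 15 LT-HSC libraries, and Cyp26b1 reached it in 7 libraries, all of LT-HSC. Crabp1, which encodes a cytoplasmic retinoic acid binding protein, was listed at 0 in 19 of 21 libraries and at 0.151 and 0.0333 TPM in the others, and was not tested. In such bulk samples fewer cells of a type and less RNA per cell cannot be told apart.

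**Figure D1:**
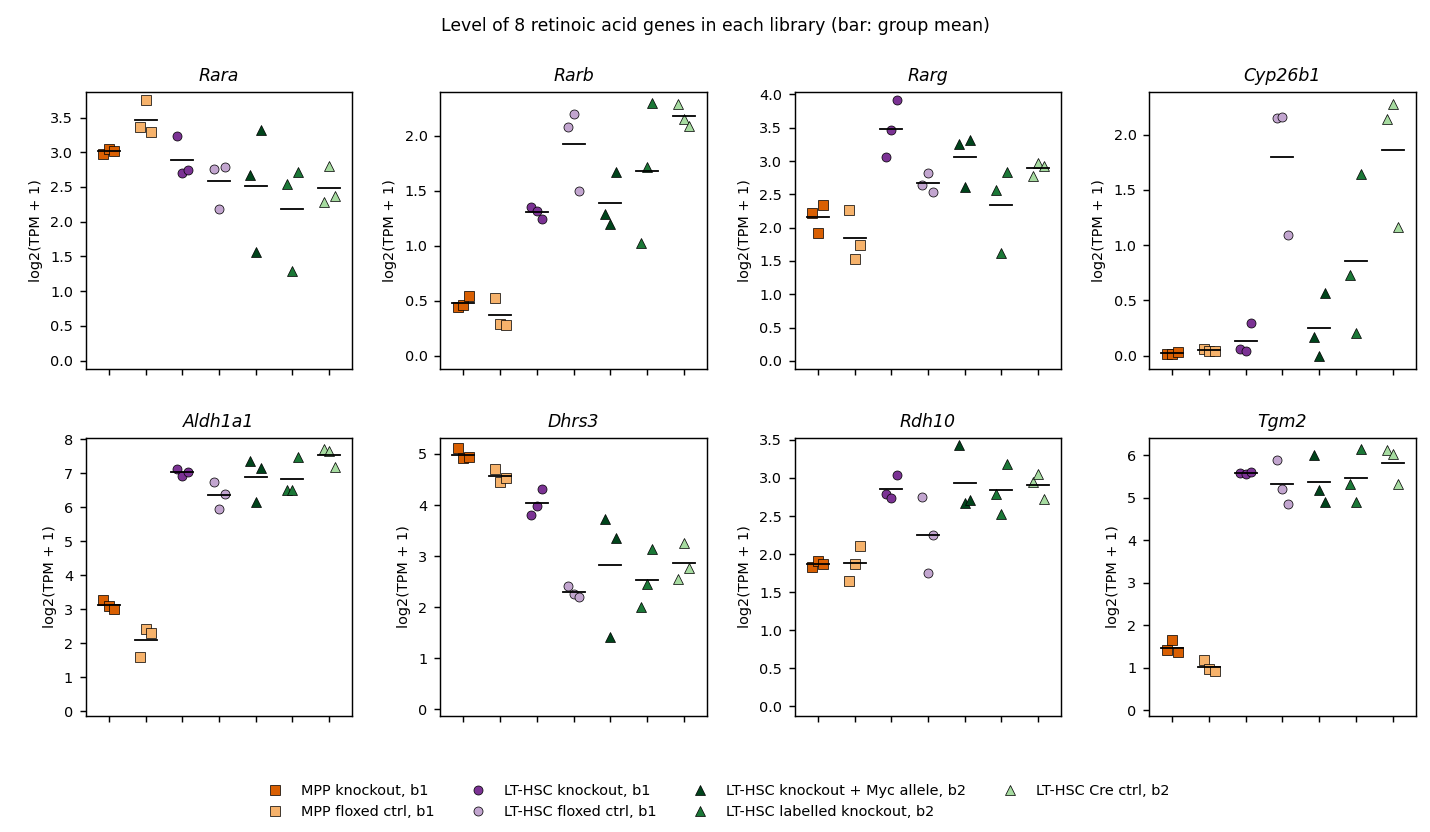
Level of 8 members in each library as log2(TPM + 1), with 3 libraries per group and the bar at the group mean; b1 and b2 are the batches. Aldh1a1 and Tgm2 are high in all LT-HSC groups and low in MPP, Dhrs3 is highest in MPP, and Cyp26b1 is near 0 in MPP and in the knockout LT-HSC of batch 1.

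Rara encodes RARα, the receptor best known from granulocyte differentiation, and lies on GRCm38 chromosome 11, 98927800 to 98974942. It stood at 6.86, 7.24 and 7.09 TPM in knockout MPP and 9.32, 12.5 and 8.80 TPM in floxed control MPP. Among LT-HSC of batch 1 it stood at 8.39, 5.48 and 5.70 TPM in knockouts and 5.79, 3.54 and 5.93 TPM in floxed controls. Every floxed control MPP library held more than every floxed control LT-HSC library, while knockout and floxed control LT-HSC overlapped. The change between cell types was a log2 change of 0.89 (SE 0.21, adjusted p = 0.00867) for floxed control MPP against LT-HSC, and it was 0.75 (adjusted p = 0.0542) without MPP floxed control 2. Between knockout MPP and knockout LT-HSC the log2 change was 0.12 (adjusted p = 0.748), and for knockout against floxed control MPP it was -0.46 (adjusted p = 0.777), although every knockout MPP library lay below every floxed control. For knockout against floxed control LT-HSC it was 0.31 (adjusted p = 0.22), and -0.23 (adjusted p = 0.482) after rescaling. In batch 2 Rara stood at 5.38, 1.95 and 9.02 TPM with the Myc allele and 4.84, 1.46 and 5.55 TPM in the libraries labelled knockout, against 3.87, 5.96 and 4.17 TPM in Cre controls. These groups overlapped, and neither change passed the test (log2 changes of 0.04, adjusted p = 0.976, with the Myc allele and -0.30, adjusted p = 0.809, in the libraries labelled knockout).

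Rarb encodes RARβ, whose own promoter carries the element shown above and which is a textbook target of retinoic acid. The gene lies on chromosome 14, 16430839 to 17082331. Batch 1 LT-HSC held 1.56, 1.48 and 1.37 TPM in knockouts and 3.22, 3.58 and 1.83 TPM in floxed controls, so every knockout library lay below every control. It fell by 0.62 on the log2(TPM + 1) scale (SE 0.20, adjusted p = 0.0241), and by 1.06 after rescaling (adjusted p = 0.0311). The call was lost without LT-HSC floxed control 2 (adjusted p = 0.094), knockout LT-HSC 2 (0.0749) or knockout LT-HSC 3 (0.0806).

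In batch 2 LT-HSC Rarb stood at 1.45, 1.29 and 2.18 TPM with the Myc allele and 1.034, 2.28 and 3.92 TPM in the libraries labelled knockout, against 3.88, 3.45 and 3.26 TPM in Cre controls. All 3 Myc allele libraries were below all Cre controls, while the libraries labelled knockout spanned both. Myc allele library 2, at 1.29 TPM, had an Rxra skipping fraction of 0. Neither change passed the test, with log2 changes of -0.79 (adjusted p = 0.503) for the Myc allele group and -0.50 (adjusted p = 0.705) for the libraries labelled knockout. In MPP it stood at 0.355, 0.374 and 0.457 TPM in knockouts and 0.437, 0.222 and 0.216 TPM in floxed controls. These levels were lower than in LT-HSC, by 1.56 on the log2 scale between the floxed controls (adjusted p = 6.26e-05, and 0.000294 with no filter). Between the knockouts the log2 change was -0.82 (adjusted p = 0.00851, and 0.00828 with no filter), and -0.66 (adjusted p = 0.061) after rescaling. The fits kept genes with 1 TPM or more in 3 libraries, and Rarb passed in batch 1 only through its LT-HSC libraries, so the filter favoured a lower level in MPP.

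Rarg encodes RARγ, the receptor linked to upkeep of blood stem cells, and lies on chromosome 15, 102234938 to 102257522. It stood in batch 1 LT-HSC at 7.32, 10.1 and 14.2 TPM in knockouts and 5.24, 6.10 and 4.78 TPM in floxed controls, with no overlap. The log2 change was 0.82 (SE 0.24, adjusted p = 0.0174) on the deposited TPM. The median of all genes was 0.52, and after rescaling the change of Rarg was 0.23 (adjusted p = 0.561). The call was also lost without knockout LT-HSC 2 (adjusted p = 0.0591) or knockout LT-HSC 3 (0.0908).

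In batch 2 Rarg stood at 8.54, 5.08 and 8.95 TPM with the Myc allele and 4.89, 2.06 and 6.12 TPM in the libraries labelled knockout, against 5.86, 6.86 and 6.57 TPM in Cre controls, and the groups overlapped. The log2 changes were 0.17 (adjusted p = 0.84) with the Myc allele and -0.56 (adjusted p = 0.705) in the libraries labelled knockout. In MPP it stood at 3.66, 2.79 and 4.06 TPM in knockouts and 3.82, 1.88 and 2.33 TPM in floxed controls. Rarg was lower in MPP than in LT-HSC, by 0.82 between floxed controls (adjusted p = 0.026) and by 1.32 between knockouts (adjusted p = 0.00105) on the log2 scale. The first of these passed in 2 of 6 fits that left out 1 library: without LT-HSC floxed control 1 or 2 the adjusted p was 0.0505 and 0.0805, and without MPP floxed control 2 or 3 it was 0.119 and 0.0781.

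The mix of receptor transcripts is described by each gene's share of their sum. Rara made up 64.6 ± 4.45% of the summed receptor TPM in knockout MPP and 77.3 ± 8.47% in floxed control MPP, against 35.9 ± 11.3% in knockout LT-HSC and 38.2 ± 10.5% in floxed control LT-HSC (SD, n = 3 each). Rarb made up 8.04 ± 1.41% in knockout LT-HSC and 21.4 ± 6.34% in floxed control LT-HSC of batch 1 (SD, n = 3 each). Its share was 11.9 ± 3.20% with the Myc allele, 24.7 ± 14.9% in the libraries labelled knockout and 24.3 ± 3.78% in Cre controls (SD, n = 3 each). Rarg made up a mean of 40.1% to 56.1% in the 5 LT-HSC groups. In floxed control LT-HSC 1 and 3 Rara held the larger share, at 40.6% and 47.3%, with Rarg at 36.8% and 38.1%. Rara was also ahead in knockout LT-HSC 1 of batch 1 (48.6%, Rarg 42.4%) and in Myc allele library 3 (44.8%, Rarg 44.4%). In the library labelled knockout 5 Rarb held the largest share, at 39.3%. The shares do not depend on the scale of a library, and they were not tested.

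**Figure D2:**
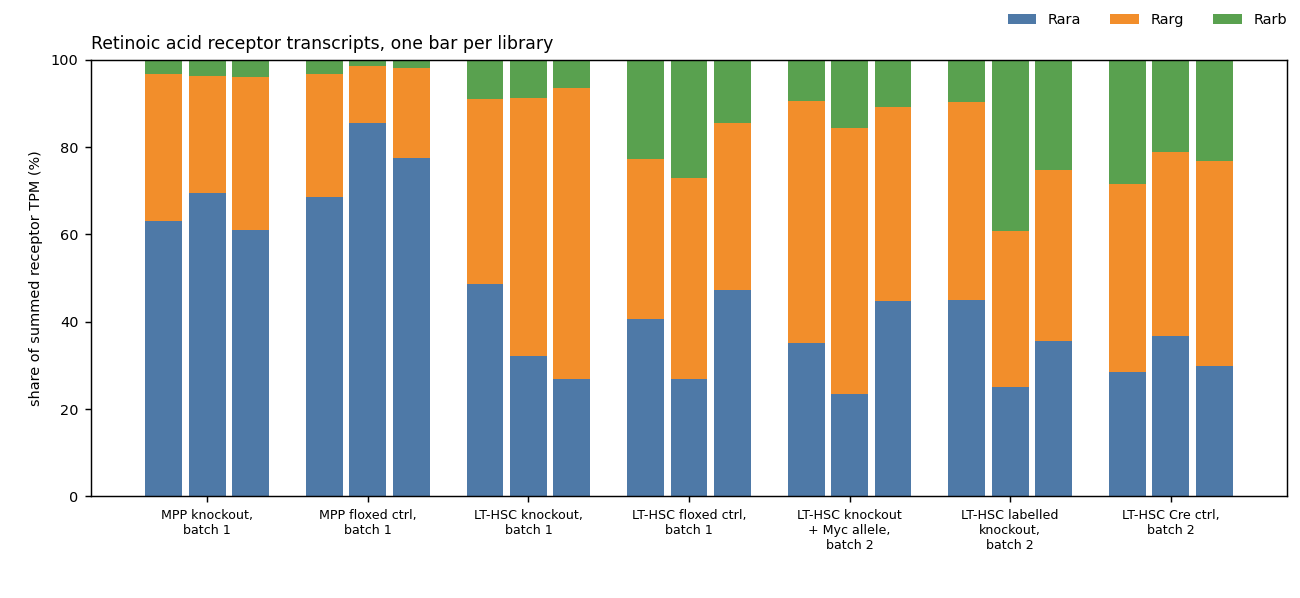
Share of Rara, Rarg and Rarb in the summed TPM of the 3 receptor genes, in percent, one stacked bar per library. Rara makes up 61.1% to 85.6% in MPP libraries, and Rarb makes up 6.43% to 9.02% in knockout LT-HSC and 14.6% to 27.1% in floxed control LT-HSC of batch 1.

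Cyp26b1 had the most extreme ratio of knockout to floxed control means of the 8 members compared in batch 1 LT-HSC. It encodes a cytochrome P450 that breaks down retinoic acid and that is itself known to be induced by it, and it lies on chromosome 6, 84571414 to 84593908. The knockout and control stem cells of batch 1 stood apart, at 0.0434, 0.0277 and 0.226 TPM in knockouts and 3.43, 3.47 and 1.13 TPM in floxed controls. All knockout libraries were below 1 TPM and all floxed controls above it, and the knockout mean was 0.0370 of the control mean. The log2(TPM + 1) change was -1.67 (SE 0.25, adjusted p = 0.00211) and after rescaling -1.95 (adjusted p = 0.00935). Cyp26b1 passed the filter of 1 TPM in 3 libraries only through the 3 floxed controls, so it had to differ, and with no filter the adjusted p was 0.00943. With no filter and a floxed control left out, the change lay between -2.02 and -1.49 and the adjusted p between 9.44e-06 and 0.0276.

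In batch 2 Cyp26b1 stood at 0.127, 0 and 0.483 TPM with the Myc allele and 0.661, 0.1499 and 2.12 TPM in the libraries labelled knockout, against 3.42, 3.84 and 1.24 TPM in Cre controls. The Myc allele libraries all lay below the Cre controls, and 1 library labelled knockout lay within the range of those controls. Myc allele library 2, at 0 TPM, had an Rxra skipping fraction of 0. The log2 changes were -1.61 (SE 0.44, adjusted p = 0.413) and -1.003 (SE 0.44, adjusted p = 0.705), and neither passed the test over all genes. With both batches of LT-HSC in a fit with batch as a term, it fell by 1.34 on the log2 scale (SE 0.28, adjusted p = 0.0477). It was the only member called there, where 0.421% of 14492 genes passed. That call was lost after rescaling (adjusted p = 0.0861), with no filter (0.177) and in 8 of 12 fits that left out 1 library. Those 8 left out LT-HSC floxed control 1, 2 or 3, Cre control 4 or 5, knockout LT-HSC 2 or 3 of batch 1, or the library labelled knockout 4, with adjusted p-values of 0.0521 to 0.144. The test of a difference between the batches in the knockout effect was not passed, at -0.67 (adjusted p = 0.316) for batch 1 minus batch 2.

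MPP held little Cyp26b1 with or without RXR, at 0.00873, 0.0118 and 0.0198 TPM in knockouts and 0.0450, 0.0300 and 0.0272 TPM in floxed controls. Floxed control MPP were thus lower than floxed control LT-HSC by 1.75 on the log2 scale (adjusted p = 0.000159, and 0.00109 with no filter). Knockout MPP and knockout LT-HSC differed by a log2 change of -0.11 (adjusted p = 0.802). The knockout effect in MPP minus that in LT-HSC was 1.64 (SE 0.35, adjusted p = 0.0681). The adjusted p was 0.0344 in the paired fit, in which MPP and LT-HSC of the same animals shared a term, and 0.0275 without knockout LT-HSC 1. The paired fit called 1342 genes, against 12 without pairing, of 14839 tested. Here too Cyp26b1 passed the filter only through the floxed control LT-HSC, and with no filter the adjusted p was 0.127 without pairing and 0.087 in the paired fit. The 7 LT-HSC libraries with 1 TPM or more of Cyp26b1 held 1.83 to 3.92 TPM of Rarb, and the other LT-HSC libraries held 1.034 to 2.28 TPM of Rarb. The ranges overlap, the libraries share their groups and batches, and no relation was tested.

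**Figure D3:**
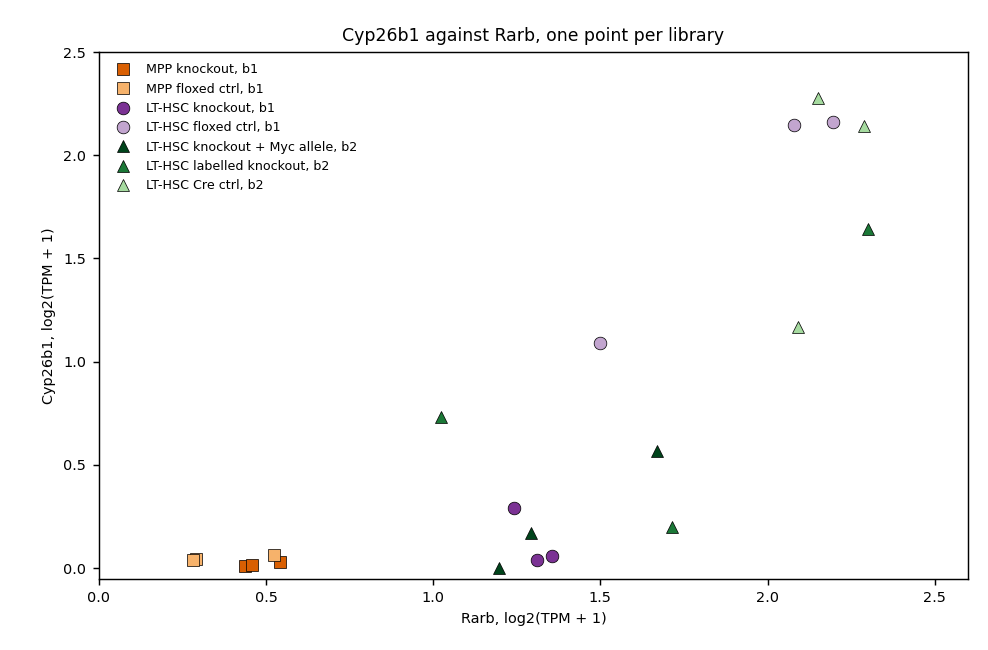
Cyp26b1 against Rarb in each of the 21 libraries, both as log2(TPM + 1), coloured by group; b1 and b2 are the batches. The 7 libraries above 1 TPM of Cyp26b1 are the 6 control LT-HSC libraries and 1 library labelled knockout, the knockout LT-HSC of batch 1 and the Myc allele libraries lie below them, and the MPP libraries lie at lower left.

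Dhrs3 rose in the knockout stem cells of batch 1. Its product, a retinaldehyde reductase, lowers the supply for retinoic acid synthesis, and the gene, itself known as induced by retinoic acid, lies on chromosome 4, 144892534 to 144928209. LT-HSC of batch 1 held 12.9, 14.8 and 18.8 TPM in knockouts and 4.37, 3.75 and 3.57 TPM in floxed controls, and the ratio of means was 3.98 with no overlap. The log2 change was 1.74 (SE 0.18, adjusted p = 2.21e-04), and 1.17 (adjusted p = 0.00635) after rescaling. It passed in each of the 6 fits that left out 1 library, with changes of 1.60 to 1.86.

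In batch 2 Dhrs3 stood at 12.3, 1.66 and 9.28 TPM with the Myc allele and 2.99, 4.45 and 7.80 TPM in the libraries labelled knockout, against 4.88, 8.54 and 5.81 TPM in Cre controls. These groups overlapped, and Myc allele library 2 was the lowest of the 9. The log2 changes were -0.02 (adjusted p = 0.986; 0.14 after rescaling) with the Myc allele and -0.33 (adjusted p = 0.806) in the libraries labelled knockout. The knockout effect of batch 1 minus that of batch 2 was 2.08 (SE 0.42, adjusted p = 0.0274), and 1.34 (adjusted p = 0.245) after rescaling. The call was also lost with no filter (adjusted p = 0.0926) and without LT-HSC floxed control 2, Cre control 5 or knockout LT-HSC 2 or 3 of batch 1 (0.0671 to 0.1). Dhrs3 was the only member called in that comparison of effects, where 1.27% of 14492 genes passed.

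MPP held the most Dhrs3, with 33.8, 29.1 and 29.5 TPM in knockouts and 25.2, 20.9 and 21.95 TPM in floxed controls. Floxed control MPP were higher than floxed control LT-HSC by a log2 change of 2.27 (SE 0.18, adjusted p = 4.67e-07), and knockout MPP were higher than knockout LT-HSC by 0.96 (adjusted p = 0.00113). Within MPP the log2 change of knockouts was 0.43 (adjusted p = 0.624), although every knockout library was above every control. The knockout effect in MPP minus that in LT-HSC was -1.31 (SE 0.25, adjusted p = 0.0623). The adjusted p was 0.03 in the paired fit, where 1342 genes were called, but 0.087 in the paired fit with no filter. Without pairing it was 0.0266 without LT-HSC floxed control 1 and 0.0203 without knockout LT-HSC 1. Summed markers of several other cell types also stood higher in the knockout stem cells of batch 1 on the deposited TPM. The 6 MPP markers summed to 68.5 to 136 TPM in knockout LT-HSC and 35.1 to 66.7 TPM in floxed control LT-HSC, without overlap. Of these 1 rose on the deposited TPM, and after rescaling none rose and 2 fell. The 7 neutrophil markers summed to 365 to 1515 TPM in knockout LT-HSC and 133 to 189 TPM in floxed control LT-HSC of batch 1, with none of them listed at 0 throughout, and 5 of 7 rose on the deposited TPM, where 44.6% of all genes did, and none after rescaling. The 8 macrophage and monocyte markers summed to 5.13 to 27.1 TPM in knockout LT-HSC and 2.21 to 3.89 TPM in floxed control LT-HSC, and Adgre1 was at 0 in the controls. The 8 B cell markers summed to 365 to 890.5 TPM in knockout LT-HSC and 10.2 to 216 TPM in floxed control LT-HSC. Sums in knockout against floxed control LT-HSC were 622 to 780.0 and 274 to 564 TPM for 6 megakaryocyte markers, 63.3 to 76.7 and 33.5 to 55.6 TPM for 7 endothelial markers, and 8.70 to 14.5 and 3.21 to 4.36 TPM for 7 stromal markers. On the deposited TPM 1 of 2 macrophage and monocyte, 2 of 5 B cell and 3 of 6 megakaryocyte markers tested rose. So did 3 of 4 endothelial and 3 of 3 stromal markers tested. After rescaling 1 stromal marker alone rose among these lists. The 8 erythroid markers summed to 275 to 454 TPM in knockout LT-HSC and 295 to 722 TPM in floxed control LT-HSC. Of these 5 fell on the deposited TPM and 6 after rescaling, with median log2 changes of -1.22 and -1.81, where 0.58% and 2.47% of all genes were lower. The part of these markers in the changes of the members was not tested.

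Rdh10 encodes the retinol dehydrogenase that works against DHRS3, and lies on chromosome 1, 16105882 to 16132550. Among batch 1 LT-HSC it stood at 5.90, 5.66 and 7.21 TPM in knockouts and 5.73, 2.35 and 3.77 TPM in floxed controls, and the groups overlapped. The log2 change was 0.60 (SE 0.23, adjusted p = 0.0445), but it was 0.07 (adjusted p = 0.82) after rescaling and 0.35 (adjusted p = 0.195) without LT-HSC floxed control 2. Only the fit without LT-HSC floxed control 1 kept the call among those that left out 1 library; without control 3 and without knockout 1, 2 or 3 the adjusted p was 0.0711, 0.0543, 0.0861 and 0.141. In batch 2 it stood at 9.80, 5.37 and 5.57 TPM with the Myc allele and 5.92, 4.76 and 8.12 TPM in the libraries labelled knockout, against 6.70, 7.29 and 5.61 TPM in Cre controls. These groups overlapped, with log2 changes of 0.03 (adjusted p = 0.967) and -0.07 (adjusted p = 0.936), the second being 0.14 (adjusted p = 0.948) after rescaling. MPP held 2.57, 2.74 and 2.66 TPM in knockouts and 2.13, 2.67 and 3.31 TPM in floxed controls. Rdh10 was lower in knockout MPP than in knockout LT-HSC, by 0.98 on the log2 scale (adjusted p = 0.0065), while between floxed controls the log2 change was -0.37 (adjusted p = 0.253) and after rescaling -0.61 (adjusted p = 0.0275).

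The ratio of Dhrs3 to Rdh10 TPM sets the reductase against the dehydrogenase and does not depend on a library's scale. It was 2.47 ± 0.240 in knockout LT-HSC and 1.102 ± 0.437 in floxed control LT-HSC of batch 1 (SD, n = 3 each). In MPP it was 11.6 ± 1.36 in knockouts and 8.75 ± 2.70 in floxed controls (SD, n = 3 each). In batch 2 it was 1.08 ± 0.696 with the Myc allele, 0.799 ± 0.256 in the libraries labelled knockout and 0.979 ± 0.227 in Cre controls (SD, n = 3 each). The knockout LT-HSC of batch 1, at 2.20 to 2.61, did not overlap their controls, at 0.762 to 1.60, and no test was made of the ratio.

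Aldh1a1 encodes a retinaldehyde dehydrogenase that makes retinoic acid, and lies on chromosome 19, 20492583 to 20643463. LT-HSC of batch 1 held 139.6, 120.4 and 129.8 TPM in knockouts and 107, 61.1 and 82.8 TPM in floxed controls, without overlap. The log2 change was 0.66 (SE 0.24, adjusted p = 0.0357), beside the median of 0.52 of all genes, and it was 0.01 (adjusted p = 0.979) after rescaling. Of the fits that left out 1 library, only that without LT-HSC floxed control 1 kept the call; without control 2 or 3 the adjusted p was 0.129 and 0.0553, and without knockout 1, 2 or 3 it was 0.0735, 0.0779 and 0.0903.

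In batch 2 Aldh1a1 stood at 164, 70.0 and 140.5 TPM with the Myc allele and 89.8, 90.1 and 177 TPM in the libraries labelled knockout, against 210.5, 201.6 and 144.5 TPM in Cre controls, and the groups overlapped. The log2 changes of -0.64 (adjusted p = 0.503) and -0.70 (adjusted p = 0.705) did not pass the test. MPP held 8.62, 7.51 and 7.07 TPM in knockouts and 2.01, 4.40 and 3.99 TPM in floxed controls, so every knockout library lay above every floxed control. The means were 7.74 ± 0.798 TPM in knockout MPP and 3.47 ± 1.28 TPM in floxed control MPP (SD, n = 3 each). The log2 change was 1.01 (SE 0.24) and did not pass over all genes (adjusted p = 0.11). Against LT-HSC, Aldh1a1 was lower in MPP by 4.25 between floxed controls (adjusted p = 1.57e-08) and by 3.91 between knockouts (adjusted p = 3.38e-08) on the log2 scale.

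Tgm2, the tissue transglutaminase gene and a classical target of retinoic acid, lies on chromosome 2, 158116405 to 158146392. No knockout comparison of Tgm2 passed the test with all libraries. Among batch 1 LT-HSC it stood at 46.7, 46.5 and 47.7 TPM in knockouts and 58.0, 36.1 and 28.1 TPM in floxed controls, so the knockouts lay inside the range of the controls (log2 change 0.26, SE 0.22, adjusted p = 0.31, and -0.38 after rescaling, adjusted p = 0.274). Without LT-HSC floxed control 1, the highest of these libraries, the change on the deposited TPM was 0.55 and passed (adjusted p = 0.0223). In batch 2 it stood at 63.4, 35.4 and 29.1 TPM with the Myc allele and 39.0, 28.9 and 69.6 TPM in the libraries labelled knockout, against 69.3, 64.4 and 38.8 TPM in Cre controls, again with overlap (log2 changes of -0.46, adjusted p = 0.59, and -0.37, adjusted p = 0.717). MPP held 1.66, 2.14 and 1.58 TPM in knockouts and 1.29, 0.967 and 0.901 TPM in floxed controls (log2 change 0.45, adjusted p = 0.837). Between the cell types Tgm2 was lower in MPP by 4.29 in floxed controls (adjusted p = 8.4e-09) and by 4.11 in knockouts (adjusted p = 1.28e-08) on the log2 scale.

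Counted together for knockout against floxed control LT-HSC of batch 1, 4 members rose (Rarg, Aldh1a1, Dhrs3 and Rdh10) and 2 fell (Rarb and Cyp26b1), while Rara and Tgm2 did not pass the test. Of the 14839 genes tested 45.2% were called, with 44.6% higher and 0.58% lower, so 4 higher of the 8 members tested is near the background. After rescaling Dhrs3 alone rose and Rarb and Cyp26b1 fell, where 4.68% of all genes were called, 2.2% higher and 2.47% lower (327 and 367 genes, against 6614 and 86 on the deposited TPM). Cyp26b1 passed the filter of 1 TPM in 3 libraries only through the floxed control LT-HSC, so the filter favoured its fall on both scales. No member passed in knockout against floxed control MPP, where 0.323% of genes did (0.526% after rescaling). In batch 2 none passed with the Myc allele against Cre controls (0.104% of 13445 genes, and 0.0818% after rescaling) or in the libraries labelled knockout against Cre controls (0.0744%, and 0.0595% after rescaling). None passed between the Myc allele group and the libraries labelled knockout, where limma called 0% of genes, on the deposited TPM and after rescaling, and 547 genes had an unadjusted p under 0.05.

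Between cell types 7 members differed in floxed controls, where 21.2% of genes passed. Dhrs3 and Rara were higher in MPP, and Tgm2, Aldh1a1, Cyp26b1, Rarb and Rarg were lower. Cyp26b1 and Rarb passed the filter only through LT-HSC libraries, so the filter favoured a lower level of these in MPP. Of all genes 15.5% were higher and 5.62% lower, and 11.2% and 12.7% (23.9% in all) after rescaling. In knockouts 6 members differed, where 19.5% of genes passed, with Dhrs3 higher in MPP and Tgm2, Aldh1a1, Rarg, Rdh10 and Rarb lower. Of all genes 3.99% were higher and 15.5% lower, and 11.6% and 11.3% (22.9% in all) after rescaling. No member's knockout effect differed between MPP and LT-HSC in the fit without pairing, where 0.0809% of genes passed (0.027% after rescaling). In the paired fit Cyp26b1 and Dhrs3 passed, among 1342 genes called, but neither passed in the paired fit with no filter. All p-values here reflect only how far these pooled samples spread, and the comparisons within a batch share their control libraries.

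**Figure D4:**
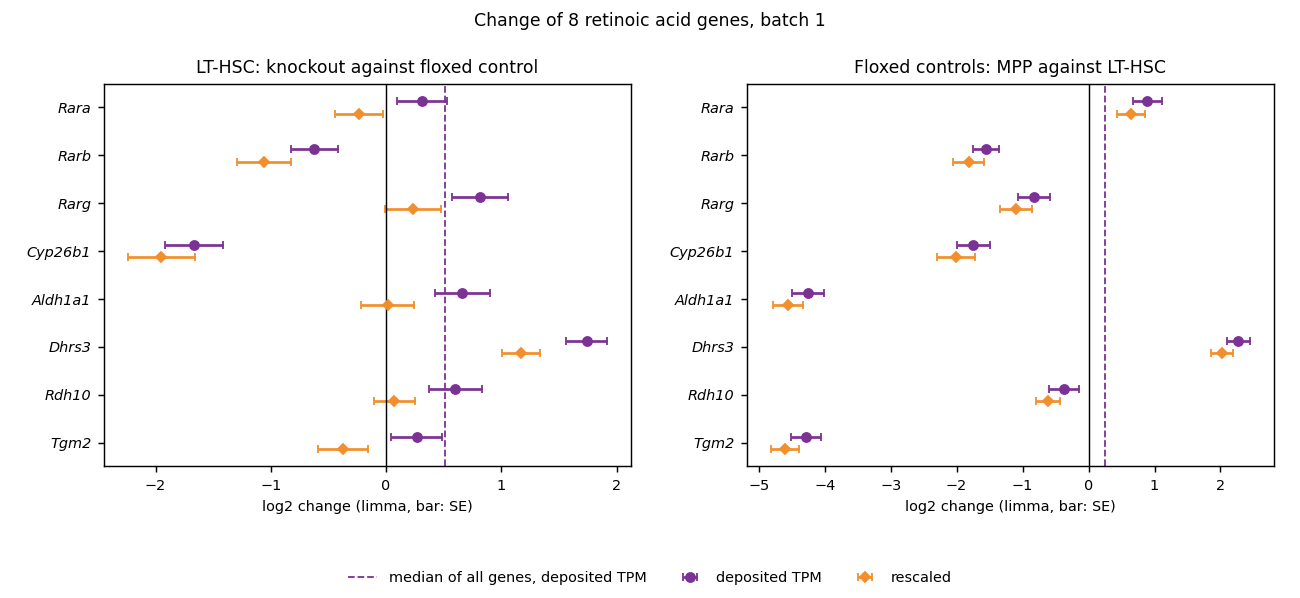
Log2 change with its SE (limma on log2(TPM + 1)) of 8 members, on the deposited TPM and after rescaling, for knockout against floxed control LT-HSC (left) and for MPP against LT-HSC in floxed controls (right) of batch 1. On the left only Rara and Tgm2 change their side of zero between the scales, and Aldh1a1 and Rdh10 lie near the median of all genes, at 0.52, on the deposited TPM; on the right Tgm2 and Aldh1a1 lie below -4.

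The rest of the pathway gave a background for these members. For MPP against LT-HSC, the counts of each list stand beside the shares of all genes given above. Of 34 other enzymes and carriers of retinoids 19 were tested in batch 1. In knockout against floxed control LT-HSC 11 rose and none fell, where 44.6% of all genes were higher. The median log2 change was 0.73 against 0.52 for all genes. After rescaling none passed, where 4.68% of all genes did. The largest were the short-chain dehydrogenase genes Rdh9 (log2 change 1.13, adjusted p = 0.0055) and Rdh1 (1.11, adjusted p = 0.00588), whose similar sequences could share reads, the retinol carrier Rbp7 (1.095, adjusted p = 0.0097) and the retinaldehyde dehydrogenase Aldh1a3 (0.997, adjusted p = 0.00691). Aldh1a3 averaged 2.45 ± 0.832 TPM in knockout LT-HSC and 0.715 ± 0.340 TPM in floxed control LT-HSC (SD, n = 3 each), far below Aldh1a1. Between the cell types Fabp5, which carries retinoic acid and fatty acids, was higher in floxed control MPP than in floxed control LT-HSC (log2 change 0.98, adjusted p = 0.0178), but not after rescaling (adjusted p = 0.0635), and so was Rdh9 (0.74, adjusted p = 0.0366; 0.0746 rescaled). After rescaling the split in floxed controls was 0 genes higher and 4 lower in MPP, in place of 2 and 1. In knockouts Rdh5 (log2 change -1.23, adjusted p = 0.000912) and Bco2 (-0.76, adjusted p = 0.0141) were lower in MPP.

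Among the RXR genes and the coregulators of nuclear receptors 14 of 15 were tested, and 4 rose in knockout against floxed control LT-HSC on the deposited TPM, among them Nrip1 (log2 change 0.62), Ncoa6 (0.58) and Ncoa2 (0.44). Of all genes 44.6% were higher. The median of the list was 0.37 against 0.52 for all genes. None of the 4 passed after rescaling, where Rxrb, a targeted gene, was lower by 0.74 on the log2 scale (adjusted p = 0.0252). On the deposited TPM Rxrb stood at 9.30, 9.85 and 12.6 TPM in knockout LT-HSC of batch 1. Floxed control LT-HSC held 14.9, 7.52 and 14.04 TPM, so these groups overlapped. Knockout MPP held 9.548, 10.71 and 13.56 TPM of Rxrb, below all floxed control MPP, at 15.83, 17.99 and 18.82 TPM. Myc allele libraries held 6.397, 8.586 and 8.884 TPM. Libraries labelled knockout of batch 2 held 12.83, 10.64 and 11.1 TPM. Both groups lay below all Cre controls, at 15.11, 16.03 and 14.51 TPM. No Rxrb change passed the test in MPP knockouts or in batch 2. Between cell types Ncoa3 was higher in MPP in floxed controls (0.63, adjusted p = 0.0313), and Ncoa1 (-0.67) and Nrip1 (-0.62) were lower in MPP in knockouts. Rescaled, the floxed controls gave 0 genes higher and 3 lower in MPP, and the knockouts 1 higher and 1 lower.

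Of 18 other genes known as induced by retinoic acid in cultured cells or embryos 11 were tested. In knockout against floxed control LT-HSC 6 rose, where 44.6% of all genes were higher. The median log2 change was 0.71 against 0.52 for all genes. The 4 largest were homeobox genes, which encode transcription factors of body patterning that stem cells also express: Hoxb5 (log2 change 1.71, adjusted p = 0.00179), Hoxa4 (1.25, adjusted p = 0.00479), Hoxb4 (1.23, adjusted p = 0.00479) and Hoxa3 (1.16, adjusted p = 0.0232). After rescaling Hoxb5, Hoxb4 and Hoxa4 passed (adjusted p = 0.0162, 0.0379 and 0.0498), where 2.2% of all genes were higher. Hoxb5 averaged 7.01 ± 1.94 TPM in knockout LT-HSC and 1.498 ± 0.900 TPM in floxed control LT-HSC (SD, n = 3 each); it is also one of the LT-HSC markers, all 9 of which rose there on the deposited TPM and 4 after rescaling. Hoxa4 was the gene of the list whose knockout effect was larger in batch 1 than in batch 2 (difference 1.81, adjusted p = 0.037, and 0.234 after rescaling). None of the 3 lists had a gene past the test in MPP knockouts or in batch 2. In MPP against LT-HSC, Cd38 (log2 change -1.30) and Hoxb5 (-1.05) were lower and Zfp703 (0.998) and Pram1 (0.83) higher in floxed controls, and 7 genes were lower in knockouts, led by Hoxb5 (-2.49), Cd38 (-1.62), Meis2 (-1.51) and Hoxa5 (-1.25). Of all genes 15.5% were lower in knockout MPP than in knockout LT-HSC. Rescaled, 1 gene was higher and 5 were lower in floxed controls, and 1 was higher and 6 lower in knockouts. The rescaled shares of all genes that were lower were 12.7% in floxed controls and 11.3% in knockouts. Of 13 promoter windows of these genes none held the DR5.

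Other genes followed the strongest patterns over the 7 groups, judged by the root mean square difference of group means of log2(TPM + 1), each gene centred on its own mean, among 15340 genes. Nearest to Aldh1a1 were Tgm2 (0.236), Cavin2 (0.329) and the stem cell marker gene Slamf1 (0.374). Nearest to Tgm2 were Cavin2 (0.223), Aldh1a1 and Clip3 (0.321). Nearest to Dhrs3 were Itgam (0.182), which encodes the myeloid integrin CD11b, Gm11490 (0.192) and Cep85 (0.194). The remaining members varied by less than 2 on the log2 scale between their highest and lowest group means and were not matched.

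Splicing gave a readout of the members that does not use their level. The deposited fractions are percent spliced in (PSI), the share of reads on a junction against its competitors. They cover 8 events in Rara, Rarg, Aldh1a1 and Dhrs3. The fits used only events with a value in every library of the fit. In batch 1 that left only the pair of Rarg events, which mirror each other in the same choice of first exon. In batch 2 it left only the Aldh1a1 events and the acceptor site events of Dhrs3. No member event tested was called. Of all 39715 events tested in batch 1, 0.166% were called in knockout against floxed control LT-HSC and 0.199% in knockout against floxed control MPP. Of MPP against LT-HSC, 0.486% of events were called in floxed controls and 0.305% in knockouts. In batch 2, of 28309 events, 0.0318% were called with the Myc allele and 0.0389% in the libraries labelled knockout against Cre controls, and 0.0141% between the Myc allele group and the libraries labelled knockout. The boundary of the first intron of Aldh1a1 (chromosome 19, 20602077 to 20602078), which marks unspliced RNA, had a PSI of 0.0444, 0.124 and 0.201 in knockout LT-HSC and of 0 in all 3 floxed control LT-HSC. It was 0 also in every other library with a value. The difference of 0.12 in a fit of these 6 libraries alone, made after the values were seen, had an adjusted p of 0.468, where 0.424% of 41703 events passed. Genes at or above 1 TPM numbered 13923 to 14870 in knockout LT-HSC and 12455 to 13249 in floxed control LT-HSC, and the part of this in the intron reads was not tested.

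Dhrs3 used a pair of acceptor sites. The junction to the nearer acceptor (chromosome 4, 144918794 to 144919230) had a PSI of 0.231, 0.244 and 0.241 in knockout MPP and 0.326, 0.319 and 0.288 in floxed control MPP, without overlap. A fit of these 6 libraries alone gave a difference of -0.07 (SE 0.0168, adjusted p = 0.304), where 0.15% of 42029 events passed. In LT-HSC it ran from 0.0938 to 0.2745 in knockouts and was 0 and 0.143 in the 2 floxed controls with a value. Rarg has a pair of alternative first exons, and the junction from the downstream one (chromosome 15, 102241984 to 102246060) had a PSI of 0.75, 0.643 and 0.833 in knockout MPP and 0.682, 0.25 and 0.308 in floxed control MPP. The difference of 0.33 did not pass the test (adjusted p = 0.47), and in knockout LT-HSC, at 0.222 to 0.492, and floxed control LT-HSC, at 0.204 to 0.579, the values overlapped. Between knockout MPP and knockout LT-HSC the difference was 0.40 (adjusted p = 0.443), without overlap. An intron boundary of Rara (chromosome 11, 98947725 to 98947726) had a PSI of 0 in both knockout MPP with a value and of 0.517 and 0.846 in the floxed control MPP with one. It was not tested, since the fits used only events with a value in every library.

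**Figure D5:**
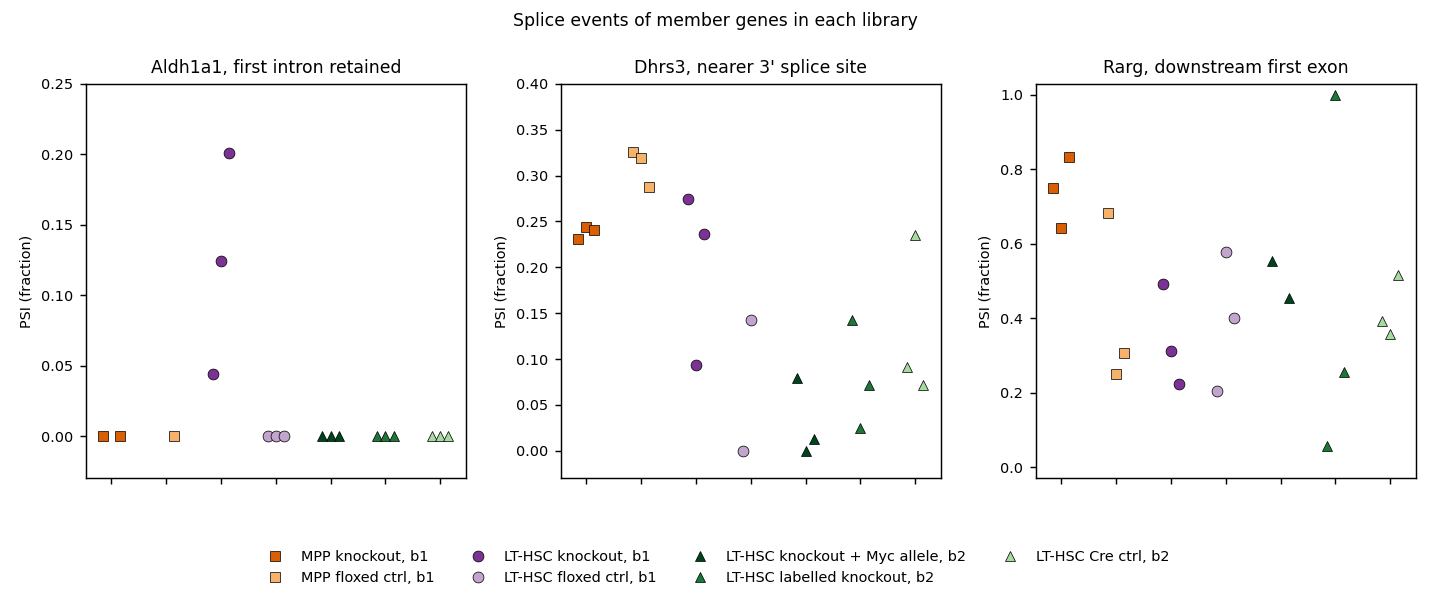
PSI, the fraction of junction reads, of 3 member events in each library with a value; b1 and b2 are the batches. Reads at the first intron of Aldh1a1 appear in the 3 knockout LT-HSC libraries of batch 1 and in no other, Dhrs3 splits knockout from control MPP, and Rarg overlaps in all comparisons of LT-HSC.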

How the data were processed

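Libraries were amplified from 5 ng of total RNA, per the labels' protocols. Expression values are TPM as deposited by the authors, made with kallisto and the mouse build mm10 per the submitters' processing notes, and splicing values are deposited fractions (PSI) for 46443 events, made with STAR 2.6 per the same notes; the sources used here name neither the PSI caller nor the annotation. TPM sum to 691094 to 918942 per library and keep no depth, so the reads behind a value are unknown.

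Identifiers were matched to symbols for 27458 of 28987. Each fit kept genes with 1 TPM or more in 3 or more of its libraries and used limma 3.58.1 (R 4.3.3, trend) on log2(TPM + 1), which understates changes of low genes, and p-values were adjusted (Benjamini-Hochberg) over all genes tested. For the rescaled values libraries were divided by median-of-ratios factors before the log. Called means an adjusted p under 0.05, for PSI with a difference of at least 0.1. Batch 1 was fitted over its 12 libraries and batch 2 over its 9; batch was a term across both. The fit was tested on simulated data. Tables and figures used Python 3.11.15, pandas 2.3.3 and matplotlib 3.10.9.

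Sequences and gene positions are RefSeq's for GRCm38.p6; Rdh10 and Tgm2 are not in the promoter table. Members, pathway lists and markers were chosen with earlier results of these data known. Other genes are named up to 4 per list and comparison, by size among those past the test, with some results of these lists not reported here, and 3 per member by likeness where its groups span at least 2 on the log2 scale. Outside this rule Rxrb was named as a target and Adgre1 as a marker, chosen after their values were seen. The DR1 and DR2 motifs and the PSI fit of only the groups compared were added after the data were seen. Descriptions give LT-HSC and MPP of batch 1 the same animal codes, so these are paired; their deviations from group means correlated at 0.065 to 0.539 over 14839 genes.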

Additional observations from a re-analysis of the deposited data

Results flagged for a closer look

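The knockout effect on Dhrs3 in LT-HSC differed between the batches by 2.08 on the log2 scale (limma, adjusted p = 0.0274), where the median of all genes was 0.73. It was 1.34 after rescaling (adjusted p = 0.245), and the call was also lost with quantile scaling (adjusted p = 0.212), with no filter (0.0926) and in 4 of the 12 fits that left out 1 library. This tested difference is why it is listed. In batch 1 all 3 knockout libraries were above all 3 floxed controls, while in batch 2 the libraries labelled knockout overlapped the Cre controls. Control genotype and batch change together. Batch 2 libraries with the knockout label had the Rxra skipping junction at a PSI of 0, 0.0127 and 0. Each held less Rxrb than every Cre control, a change that did not pass the test. Control genotype, batch and the extent of deletion thus cannot be told apart.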

How the results depend on the processing

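None of the 21 member changes that passed the test turned its sign under any alternative run. Among changes that had not passed, 11 turned their sign after rescaling, 10 with quantile scaling, 2 with a pseudocount of 0.1 and 44 over all fits with a library left out. Those after rescaling include Rara (-0.23) and Tgm2 (-0.38) in knockout against floxed control LT-HSC of batch 1, Rarg for MPP minus LT-HSC (0.03), and Rara (-0.07), Rdh10 (-0.02) and Tgm2 (-0.19) for batch 1 minus batch 2. In knockout against floxed control LT-HSC of batch 1 the count of 6 members called became 3 after rescaling, 3 with quantile scaling, 3 with a pseudocount of 0.1, 3 in a fit of the 2 groups alone, and 2 to 6 with a library left out (2 without LT-HSC floxed control 2 or knockout LT-HSC 2 or 3, and 3 without floxed control 3). Dhrs3 was called in each of these, and Cyp26b1 in each where the filter kept it. With a floxed control left out the filter dropped Cyp26b1, so those counts do not hold it. The 6 without LT-HSC floxed control 1 include Tgm2 (limma, adjusted p = 0.0223). With no filter Cyp26b1 was called also where a floxed control was left out (an alternative chosen after seeing the data). For MPP against LT-HSC the count was 5 to 7 in floxed controls and 6 in knockouts with a library left out. In LT-HSC of both batches the count of 1 became 0 after rescaling, with quantile scaling, with a pseudocount of 0.1 and with no filter, and 0 to 1 with a library left out. For the knockout effect of batch 1 minus batch 2 the count of 1 became 0 after rescaling, with quantile scaling and with no filter, and 0 to 3 with a library left out; it was 0 without LT-HSC floxed control 2, Cre control 5 or knockout LT-HSC 2 or 3, 2 without LT-HSC floxed control 1 or knockout LT-HSC 1, and 3 without the library labelled knockout 6.

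With the replicate block the count for the difference of knockout effects between MPP and LT-HSC was 2 in place of 0 (1342 genes called in place of 12), but 0 with the block and no filter together, chosen after seeing the data (1 gene called), and with a library left out it was 0 to 2, at 1 without LT-HSC floxed control 1 and 2 without knockout LT-HSC 1. For batch 1 minus batch 2, where knockouts and controls share only a number (same-number correlations of -0.153 to 0.295), the block gave 2 (1105 genes called in place of 184). The block changed no other count of members, and none of the 21 member calls, but 83 genes in place of 48 were called in knockout MPP, 54 in place of 10 in the libraries labelled knockout of batch 2 and 298 in place of 61 in LT-HSC of both batches. A fit of the 2 groups alone called 3602 genes in place of 6700 in LT-HSC of batch 1 and 134 in place of 48 in MPP. With no filter 18 genes in place of 10 were called in the libraries labelled knockout, 62 in place of 184 for batch 1 minus batch 2, 22 in place of 12 for MPP minus LT-HSC, and 0 in place of 61 in both batches. A pseudocount of 0.1 gave 63, 3 and 0 in these last 3 comparisons and quantile scaling 18, 3 and 0, and quantile scaling called 683 genes in LT-HSC of batch 1. No paired analysis was possible for the Myc allele comparisons, because those libraries share no replicate number with the other batch 2 libraries. The PSI count was 0 throughout, over the member events that could be tested. Depth is unknown for TPM, so values near 0 have no floor here.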
